A study of Homo sapiens with 14 samples.

Results

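The genes described here are 35 genes of the unfolded protein response and of the amino acid response that runs through the transcription factor ATF4, read in HEK293 cells, a human embryonic kidney line, that express a HOXD transcription factor. They were taken from a list of named genes, 16 in the ATF4 arm and 19 in the endoplasmic reticulum (ER) arm, out of 10349 genes tested, and each was read by 1 probe set, the brightest on average of those assigned to that gene alone. The 14 arrays hold 4 HOXD9 lines, transfected with an HA-tagged HOXD9 vector, 3 HA vector arrays, 4 HOXD13 lines, transfected with a V5-tagged HOXD13 vector, and 3 V5 vector arrays. Stable cells of all 4 groups were selected with G418, an antibiotic to which the plasmid gives resistance. For each HOX gene the lines comprise 1 mixed population (the mix) and 3 clones taken from it (a, b, c), so they are not fully independent. How the replicate cultures of a vector were kept apart is not stated, so the p-values rest on a spread that may be partly technical.

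Secretory and membrane proteins fold in the ER with the help of chaperones. When unfolded proteins build up, the sensors PERK, IRE1 and ATF6 raise chaperone synthesis, degrade misfolded protein and slow translation. PERK and kinases that sense amino acid shortage phosphorylate the initiation factor eIF2, which lowers general translation but favours translation of ATF4. ATF4 then switches on genes of amino acid synthesis and uptake and, under lasting stress, the proapoptotic factor CHOP.

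Levels are given in log2 units as GCRMA computes them, so a difference of 1 is a doubling of signal, and probe sets without detectable transcript lie near 2. The 7 arrays of the HA set and the 7 of the V5 set had been normalized separately, so levels are compared only within a set. Every member was above the filter value of 5 on every array, the lowest value being 5.87 for ALDH1L2 in HOXD9 clone a, so all 35 were tested. Of 3 HOXD13 probe sets, the one brightest in the HOXD13 lines read 12.43 ± 0.17 (log2, SD, n = 4) in the HOXD13 lines against 6.93 ± 0.09 (n = 3) in the V5 vectors, and the one brightest over all arrays read 9.92 ± 0.71 (n = 4) against 8.94 ± 0.01 (n = 3). Of 2 HOXD9 probe sets, one read 6.99 ± 0.52 (n = 4) in the HOXD9 lines against 2.73 ± 0.18 (n = 3) in the HA vectors, and the other 4.40 ± 0.09 (n = 4) against 4.22 ± 0.02 (n = 3). Of 8 HEK293 markers 6 passed the filter, the neurofilament gene NEFM and the kidney factor PAX2 being dim, while 0 of 4 leukocyte markers, 1 of 5 fibroblast markers (COL1A1) and 1 of 3 squamous markers (SFN) did. The difference between the 3 prime and 5 prime control probe sets of ACTB, a measure of RNA integrity and labelling, was 2.80 in HOXD13 clone c, against 1.82 to 2.13 in the other HOXD13 lines and 2.19 to 2.26 in the V5 vectors. It ran from 1.70 in clone a to 2.35 in clone b of HOXD9, against 2.29 to 2.37 in the HA vectors. In bulk samples fewer cells that express a gene and less RNA per cell cannot be told apart.

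HOXD13 lines had less mRNA of several ATF4 target genes than V5 vectors. In the HOXD13 comparison TRIB3, DDIT3, ASNS and PHGDH fell, which is 4 of the 16 ATF4 arm genes, 0 rose and 12 did not pass. Over all genes 7.76% were called lower and 2.88% higher, and 10.6% were called in either direction. In the HOXD9 comparison 0 of the 35 genes were called by limma, where 0.00966% of all genes were. At an unadjusted p under 0.05, 6 genes of the ATF4 arm were higher and 1 lower in HOXD9 lines, and 0 genes of the ER arm were higher and 2 lower. At that limit 13% of all genes were higher and 10.5% lower. The median log2 fold change of the ATF4 arm was -0.28 with HOXD13 and 0.22 with HOXD9, beside medians over all genes of -0.03 and 0.08. With the ACTB difference as a covariate the HOXD9 median was 0.13, beside 0.04 over all genes. For the ER arm the medians were 0.03 and 0.04, with 1 gene, XBP1, called lower with HOXD13.

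**Figure D1:**
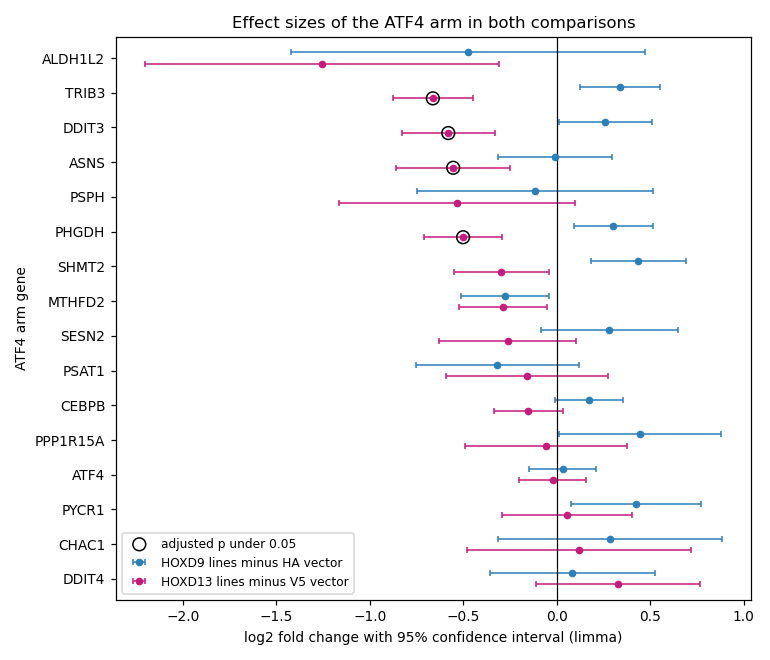
Log2 fold change of the 16 ATF4 arm genes (x axis, with the 95% confidence interval from limma) in HOXD9 lines minus HA vectors (blue) and HOXD13 lines minus V5 vectors (magenta); circles mark adjusted p under 0.05. The 4 circled genes are all lower with HOXD13, and ATF4 itself lies near 0 in both comparisons.

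The mRNA of ATF4 itself hardly differed between HOX lines and vectors. ATF4 had log2 levels of 13.92, 14.08, 13.90 and 14.03 in the HOXD9 lines (the mix, then the clones in order), against 13.93, 13.95 and 13.97 in HA vectors 1, 2 and 3. In the V5 set the levels were 14.36, 14.32, 14.41 and 14.40 in the HOXD13 lines, against 14.42, 14.38 and 14.38 in V5 vectors 1, 2 and 3. The groups overlapped in both sets, and the lines and vectors are listed in this order below. The log2 fold change of ATF4 was -0.02 with HOXD13 (95% interval -0.20 to 0.16) and 0.03 with HOXD9 (-0.15 to 0.21). Control of ATF4 lies largely in translation, which arrays do not read.

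Of the stress genes downstream of ATF4, TRIB3 and DDIT3 were lower in all HOXD13 lines. TRIB3, a pseudokinase that restrains AKT and ATF4, had log2 levels of 12.19, 12.20, 12.15 and 11.91 in HOXD13 lines, against 12.79, 12.76 and 12.78 in V5 vectors. Every HOXD13 line lay below every vector, with clone c lowest. TRIB3 fell by 0.66 (SE 0.10, limma adjusted p = 0.00202), a level 1.58-fold lower in HOXD13 lines, and its second probe set fell by 0.86 (adjusted p over probe sets = 0.0072). In the HA set TRIB3 read 12.49, 12.72, 12.57 and 12.48 in HOXD9 lines, against 12.25, 12.21 and 12.23 in HA vectors. There the lines were all above the vectors, but the log2 fold change of 0.34 did not pass (adjusted p = 0.147).

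DDIT3, which encodes the proapoptotic factor CHOP, had log2 levels of 9.81, 9.62, 9.68 and 10.05 in HOXD13 lines, against 10.32, 10.38 and 10.41 in V5 vectors. The groups did not overlap, and clone c lay nearest to the vectors. DDIT3 fell by 0.58 (SE 0.12, adjusted p = 0.00887), a call that ended without V5 vector 3 (adjusted p = 0.0524). In the HA set the values were 9.77, 10.04, 9.74 and 9.95 in HOXD9 lines, against 9.65, 9.58 and 9.62 in HA vectors. All HOXD9 lines were above the vectors, by a log2 fold change of 0.26 that did not pass (adjusted p = 0.201).

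The other stress genes of the arm did not pass in either comparison. PPP1R15A, the GADD34 subunit that reverses eIF2 phosphorylation, had log2 levels of 9.86, 10.21, 9.84 and 10.04 in HOXD9 lines, against 9.47, 9.53 and 9.63 in HA vectors (log2 fold change 0.44, adjusted p = 0.204). The HOXD9 lines were all above the vectors. In HOXD13 lines it read 10.19, 10.37, 10.30 and 9.35, against 10.13, 10.09 and 10.11 in V5 vectors, so that clone c alone lay below them. CHAC1, which degrades glutathione, DDIT4, an inhibitor of mTORC1, and PYCR1 showed the same split: the mix, a and b above and clone c below all V5 vectors. Their shifts in HOXD13 clone c were -0.74, -0.43 and -0.11. With PPP1R15A this split held in 4 of 16 ATF4 arm genes, near the 20.4% of all genes. The reverse held in 2 of 16, PSAT1 and ALDH1L2, near the 12.5% of all genes. In PSAT1 clone c was barely above the vectors, at 14.125 against 14.1055 in V5 vector 2. On its other probe set clone c read 10.54, below the V5 vector mean of 10.72 (SD 0.05). Without clone c DDIT4 had a log2 fold change of 0.58 (adjusted p = 0.000231), where 18.9% of all genes were called higher. That fit is quoted because clone c went the other way in these same values, so its p-value is no separate support. SESN2, a stress-induced brake on mTORC1, shifted by -0.78 in HOXD13 clone c and by -0.21 to 0.01 in the other HOXD13 lines. CEBPB, a bZIP partner of ATF4, was lower in all HOXD13 lines and higher in all HOXD9 lines, with log2 fold changes of -0.15 and 0.17 that did not pass.

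Among the genes of amino acid synthesis, PHGDH and ASNS fell with HOXD13. PHGDH, the first enzyme of serine synthesis, had log2 levels of 12.74, 12.65, 12.66 and 12.80 in HOXD13 lines, against 13.25, 13.15 and 13.24 in V5 vectors. The groups were clearly apart and the HOXD13 lines lay close together. PHGDH fell by 0.50 (SE 0.10, adjusted p = 0.00804), a 1.42-fold lower level. In the HA set it read 12.91, 13.13, 12.90 and 13.19 in HOXD9 lines, against 12.71, 12.75 and 12.73 in HA vectors. The HOXD9 lines were all higher, but the log2 fold change of 0.30 did not pass (adjusted p = 0.147).

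ASNS, asparagine synthetase, had log2 levels of 13.57, 13.35, 13.32 and 14.004 in HOXD13 lines, against 14.09, 14.11 and 14.14 in V5 vectors. Clone c was only slightly below the vectors and the other lines far below. ASNS fell by 0.55 (SE 0.14, adjusted p = 0.0272), with a shift of -0.11 in clone c and -0.54 to -0.80 in the other lines. The call ended with a fit within each tag set and without the mix, clone a, clone b or any 1 of the V5 vectors (adjusted p up to 0.109). In HOXD9 lines ASNS read 13.67, 13.62, 13.61 and 13.81, against 13.68, 13.68 and 13.70 in HA vectors, and the groups overlapped.

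SHMT2, which makes one-carbon units from serine in mitochondria, was called in neither comparison but the effects differed. It had log2 levels of 12.18, 12.44, 12.11 and 12.43 in HOXD9 lines, against 11.84, 11.90 and 11.83 in HA vectors (log2 fold change 0.44, adjusted p = 0.147). HOXD13 lines read 12.22, 12.23, 12.31 and 11.91, against 12.46, 12.48 and 12.46 in V5 vectors (log2 fold change -0.30, adjusted p = 0.123). HOXD9 lines were thus all above and HOXD13 lines all below their vectors, and on all 3 of its probe sets the mean was higher with HOXD9 and lower with HOXD13.

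The rest of the serine and one-carbon genes did not pass. ALDH1L2, a mitochondrial folate enzyme, had the largest change of the ATF4 arm with HOXD13, a log2 fold change of -1.26 (SE 0.44, adjusted p = 0.0843). Its log2 levels were 7.21, 6.79, 6.49 and 8.72 in HOXD13 lines, against 8.66, 8.66 and 8.36 in V5 vectors. Clone c lay above the vectors and the other lines well below. Without clone c the log2 fold change was -1.73 (adjusted p = 0.000706), where 16.8% of all genes were called lower. As clone c was seen to go the other way in these same values, that p-value is no separate support. In HOXD9 lines ALDH1L2 read 7.24, 5.87, 7.08 and 6.90, against 7.34, 7.21 and 7.20 in HA vectors, with clone a lowest. PYCR1, a proline synthesis enzyme, had 7.51, 7.91, 7.61 and 8.31 in HOXD9 lines, against 7.43, 7.41 and 7.40 in HA vectors (log2 fold change 0.42, adjusted p = 0.166). In HOXD13 lines PYCR1 read 7.98, 7.99, 8.18 and 7.82, against 7.95, 7.93 and 7.94 in V5 vectors. MTHFD2, a mitochondrial folate dehydrogenase, had log2 fold changes of -0.29 with HOXD13 and -0.28 with HOXD9. The serine enzymes PSAT1 and PSPH had -0.16 and -0.53 with HOXD13 and -0.32 and -0.12 with HOXD9, and both were low in HOXD9 clone a, with shifts of -1.03 and -1.10 from the HA vectors.

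**Figure D2:**
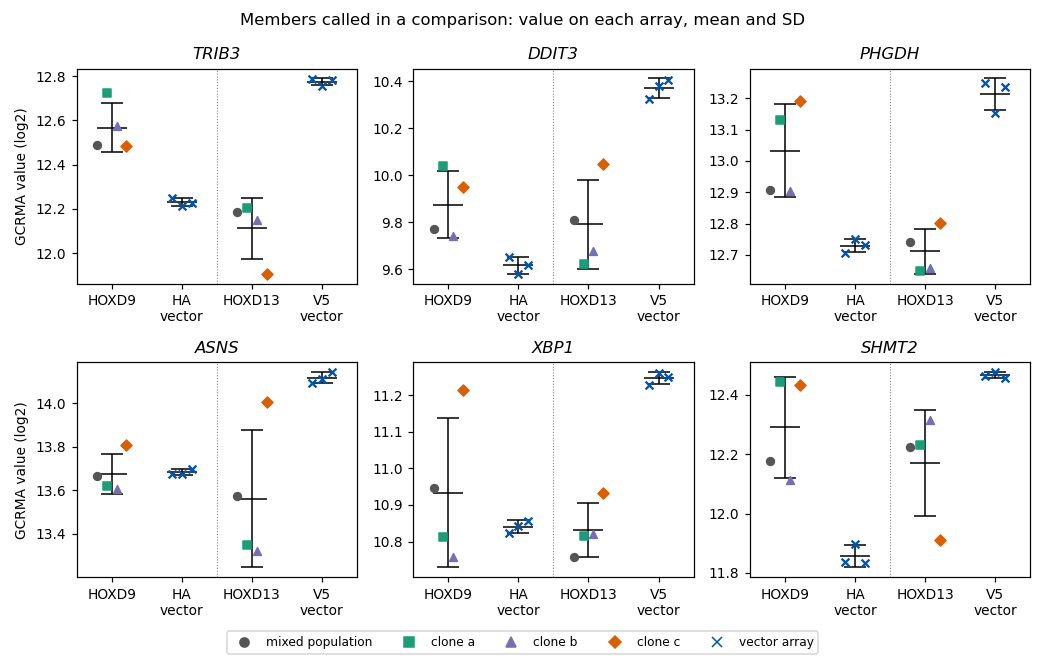
GCRMA value (y axis, log2) on each array of the 6 members called in a comparison or in the difference of effects, with group mean and SD; the dotted line parts the HA set from the V5 set, whose levels are not comparable. All 4 HOXD13 lines lie below the 3 V5 vectors in each of the 6 genes, and the HOXD9 lines lie above the HA vectors in TRIB3, DDIT3, PHGDH and SHMT2.

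The effects of the HOX genes were set against each other directly, as the HOXD13 effect minus the HOXD9 effect. This difference was -0.9997 (log2, SE 0.14, adjusted p = 0.00201) for TRIB3, -0.84 (SE 0.16, adjusted p = 0.00856) for DDIT3, -0.80 (SE 0.14, adjusted p = 0.00515) for PHGDH and -0.73 (SE 0.17, adjusted p = 0.0178) for SHMT2. These were 4 of 16 ATF4 arm genes and 0 of 19 ER arm genes, where 8.12% of all genes were called lower, 1.52% higher and 9.63% in either direction. The SHMT2 call ended without HA vector 1 or 3 or any 1 V5 vector (adjusted p up to 0.0544). ASNS had a difference of -0.55 (adjusted p = 0.105). In 5 of 16 ATF4 arm genes (DDIT3, TRIB3, PHGDH, SHMT2 and CEBPB) all HOXD9 lines lay above and all HOXD13 lines below their vectors, which 5.82% of all genes did. The V5 set has a higher upper quartile of values, 7.02 against 6.27 in the HA set, and how far this enters the difference was not tested.

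Non-overlap of lines and vectors was common in these arrays, whose vector arrays vary little. In HOXD9 lines 9 ATF4 arm genes lay above all HA vectors (22.4% of all genes did) and 2 below (14.1%), 36.6% of all genes lying on either side. With HOXD13, 0 lay above all V5 vectors (8.59%) and 6 below (20.3%), with 28.9% of all genes on either side. In the ER arm 0 lay above and 2 below with HOXD9, and 1 above and 5 below with HOXD13. The median SD per gene of the ATF4 arm was 0.16 (n = 4) in HOXD9 lines against 0.03 (n = 3) in HA vectors, and 0.18 (n = 4) in HOXD13 lines against 0.03 (n = 3) in V5 vectors. The fit gives all groups the same spread.

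Of 38 measured ATF4-linked genes outside the 35, 4 fell with HOXD13 and 34 did not pass, beside the 7.76% called lower over all genes. GDF15, a stress-induced cytokine, fell by 1.06 (SE 0.11, adjusted p = 0.000207), and WARS1, the tryptophanyl-tRNA synthetase, fell by 1.03 (SE 0.17, adjusted p = 0.00361). INHBE, an inhibin subunit, fell by 0.84 and PCK2, the mitochondrial PEP carboxykinase, fell by 0.81. Their differences of effect were -1.31 for GDF15, -1.47 for WARS1, -0.999 for INHBE and -1.13 for PCK2, all called, and the stress protein NUPR1 (-1.02, adjusted p = 0.0137) and the cysteine synthesis enzyme CBS (-0.71, adjusted p = 0.0262) were called too. In the difference of effects 6 of the 38 were thus called lower and 0 higher, where 8.12% and 1.52% of all genes were. The median log2 fold change of this list was -0.18 with HOXD13 and 0.13 with HOXD9. Of 12 genes of eIF2, its exchange factor eIF2B and its kinases, the eIF2B subunit EIF2B3 fell by 0.50 (adjusted p = 0.0214) with HOXD13 and 11 did not pass; its difference of effect was -0.85 (adjusted p = 0.0106). None of the 38 and 12 genes was called by limma with HOXD9, with 8 higher and 2 lower, and 2 higher and 3 lower, at an unadjusted p under 0.05 (13% of all genes higher, 10.5% lower).

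Promoters of 31 of the 35 genes were found in RefSeq (GRCh38.p14), for windows of 300 bases from 250 before to 50 after each annotated start, in 12 ATF4 arm and all 19 ER arm genes. The motifs below were searched on both strands: the ER stress response element ERSE, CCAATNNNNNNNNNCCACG, which binds ATF6 with NF-Y; TGATGNAA, the core of the element that binds ATF4 with a C/EBP factor; and TGACGTGG, the core of an element bound by XBP1 and ATF6. The XBP1 core on its other strand begins with CCACG, the end of ERSE, so that pair can overlap, but no promoter of these genes held both. ERSE was in 7 of the 19 ER arm genes (XBP1, HSPA5, HSP90B1, PDIA6, CALR, CANX and CRELD2), in 0 of the 12 ATF4 arm genes and in 0.0916% of all 27305 genes. The ATF4 core was in 2 of 12 ATF4 arm genes (ASNS and CHAC1), in 1 ER arm gene (HERPUD1) and in 4.46% of all genes. The XBP1 core was in 1 ER arm gene (HYOU1), in 0 of the ATF4 arm and in 0.927% of all genes. A match is a description of the letters and does not show binding. The sequences printed are those of HSPA5 and CALR, whose levels in HOXD13 clone c and its sister lines went opposite ways, XBP1, which carries the same element and fell, and ASNS, the called ATF4 arm gene with a match. Capitals mark the ERSE, or in ASNS the ATF4 core, and each sequence runs 5′ to 3′ on the gene's strand.
HSPA5 (chr9:125241294-125241593, minus strand): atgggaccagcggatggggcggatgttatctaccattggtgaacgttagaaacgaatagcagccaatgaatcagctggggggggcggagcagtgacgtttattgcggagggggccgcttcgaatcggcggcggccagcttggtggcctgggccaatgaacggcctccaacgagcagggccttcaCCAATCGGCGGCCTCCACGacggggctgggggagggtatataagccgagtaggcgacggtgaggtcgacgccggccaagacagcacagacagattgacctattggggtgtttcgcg
CALR (chr19:12938359-12938658, plus strand): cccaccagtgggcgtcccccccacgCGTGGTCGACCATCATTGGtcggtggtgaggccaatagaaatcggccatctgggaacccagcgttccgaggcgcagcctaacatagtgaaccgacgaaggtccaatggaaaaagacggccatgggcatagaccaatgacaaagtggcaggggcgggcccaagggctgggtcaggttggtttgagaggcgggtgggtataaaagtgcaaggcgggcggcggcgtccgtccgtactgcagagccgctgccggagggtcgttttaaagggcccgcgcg
XBP1 (chr22:28800520-28800819, minus strand): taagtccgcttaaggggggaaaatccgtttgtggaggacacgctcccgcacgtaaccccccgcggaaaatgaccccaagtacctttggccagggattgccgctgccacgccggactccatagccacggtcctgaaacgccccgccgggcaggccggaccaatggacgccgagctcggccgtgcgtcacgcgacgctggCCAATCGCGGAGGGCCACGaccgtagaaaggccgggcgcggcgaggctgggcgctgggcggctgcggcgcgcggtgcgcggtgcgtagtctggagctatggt
ASNS (chr7:97872359-97872658, minus strand): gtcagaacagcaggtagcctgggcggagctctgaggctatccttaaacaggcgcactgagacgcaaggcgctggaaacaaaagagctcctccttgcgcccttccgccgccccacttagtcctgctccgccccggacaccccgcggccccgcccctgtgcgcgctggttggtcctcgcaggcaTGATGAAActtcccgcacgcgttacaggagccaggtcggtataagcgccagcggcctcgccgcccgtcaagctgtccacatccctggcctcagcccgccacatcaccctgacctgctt
The ERSE of CALR lies on the opposite strand, so its capitals read as the reverse complement.

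**Figure D3:**
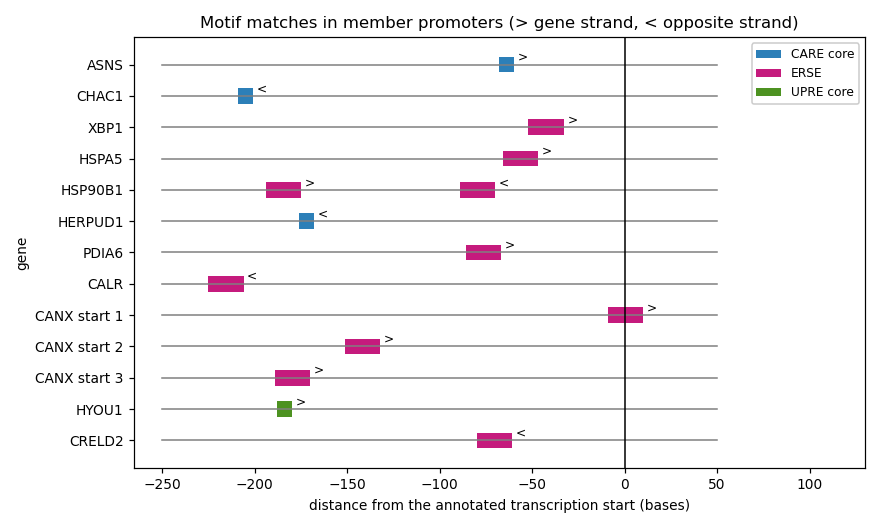
Position of motif matches (x axis, bases from the annotated transcription start; ERSE in magenta, ATF4 core, labelled CARE core, in blue, XBP1 core, labelled UPRE core, in green) in the member promoters that hold one, with 1 row for each annotated start. ERSE matches lie from -225 to 10, and the match of ASNS begins at -68.

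Of the ER sensors and their effector, XBP1 fell with HOXD13. XBP1 is the transcription factor made active when IRE1 splices its mRNA, and it had log2 levels of 10.76, 10.81, 10.82 and 10.93 in HOXD13 lines, against 11.23, 11.26 and 11.25 in V5 vectors. The groups did not overlap and the HOXD13 lines lay close together. XBP1 fell by 0.42 (SE 0.11, 1.33-fold, adjusted p = 0.0303), as the 1 call among 19 ER arm genes, near the 7.76% of all genes called lower. The call ended without any 1 of the HA vectors, the V5 vectors, or the HOXD13 mix, clone a or clone b (adjusted p up to 0.116). In HOXD9 lines XBP1 read 10.95, 10.81, 10.76 and 11.21, against 10.82, 10.84 and 10.86 in HA vectors, with overlap. The probe set reads spliced and unspliced XBP1 without telling them apart, as far as the annotation used here goes.

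The sensors themselves did not pass. EIF2AK3, which encodes PERK, had log2 fold changes of 0.12 with HOXD13 (95% interval -0.17 to 0.41) and -0.24 with HOXD9 (-0.53 to 0.05). ERN1, which encodes IRE1, had -0.08 (-0.32 to 0.17) and 0.04 (-0.21 to 0.29). ATF6 had -0.31 (-0.76 to 0.15) and -0.35 (-0.81 to 0.10), and in HOXD9 clone c its shift from the HA vectors was -1.07. The other probe sets of ATF6 gave -0.40 to -0.10 with HOXD13 and -0.62 to 0.10 with HOXD9, so they disagreed in sign with HOXD9.

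In 7 of the 15 ER chaperone and degradation genes the HOXD13 mix, a and b were above and clone c below the V5 vectors. SDF2L1, an ER protein that works with the HSPA5 cycle, had log2 levels of 8.74, 9.08, 9.44 and 6.36 in HOXD13 lines, against 7.51, 7.48 and 7.63 in V5 vectors. Clone c lay about as far below the vectors as the mix lay above them. The mean log2 fold change was 0.86 (SE 0.59, 95% interval -0.40 to 2.13, adjusted p = 0.376), and without clone c it was 1.55 (adjusted p = 0.00343). CALR, calreticulin, a lectin chaperone, read 10.86, 11.09, 11.31 and 9.84 in HOXD13 lines, against 10.45, 10.36 and 10.41 in V5 vectors. It showed the same order; its log2 fold change was 0.37 (adjusted p = 0.437), and 0.68 without clone c (adjusted p = 0.00955). Its 2 other probe sets gave 0.37 and 0.38. MANF, an ER-resident neurotrophic factor, read 11.58, 11.74, 11.78 and 10.68 in HOXD13 lines, against 11.02, 11.00 and 11.03 in V5 vectors. Its log2 fold change was 0.43 (adjusted p = 0.322), and 0.68 without clone c (adjusted p = 0.0184). Without clone c 3 of 19 ER arm genes were called higher and 1 lower, where 18.9% and 16.8% of all genes were. That fit is quoted because clone c went the other way in these same values. Its p-values are thus no separate support for a rise, and it rests on the mix and clones a and b taken from it.

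HSPA5, the chaperone BiP that holds the sensors inactive, had log2 levels of 13.70, 13.93, 14.06 and 13.03 in HOXD13 lines, against 13.37, 13.41 and 13.34 in V5 vectors. Again clone c was the lowest array and clone b the highest. Its log2 fold change was 0.31 (95% interval -0.26 to 0.87, adjusted p = 0.492), and that of its second probe set 0.80 (adjusted p over probe sets = 0.168). CRELD2, an ER disulfide isomerase-like protein, read 9.91, 9.96, 9.96 and 9.38 in HOXD13 lines, against 9.80, 9.67 and 9.71 in V5 vectors (log2 fold change 0.08, adjusted p = 0.852). The 7 genes with this split were HSPA5, DNAJB9, SDF2L1, PDIA4, CALR, CRELD2 and MANF, and 20.4% of all genes showed it. For DNAJB9 the probe sets disagreed on clone c. Another probe set read 8.41 there, above the V5 vector mean of 8.28 (SD 0.06), and a further one 7.54, below the mean of 7.59. HSP90B1 was above the vectors and SEL1L, EDEM1 and CANX below them in all 4 lines. The reverse pattern held in 0 of 15, beside 12.5% of all genes. The median shift of these 15 genes was 0.07 (mix), 0.08 (clone a), 0.24 (clone b) and -0.26 (clone c), beside -0.02, -0.04, -0.04 and -0.13 over all genes. Of the 15 genes 4 were higher by more than 0.3 in the mix, 5 in clone a and 6 in clone b, where 21.1%, 24.9% and 27% of all genes were. Those lower by more than 0.3 were 2 in each, where 22.4%, 25.9% and 28.6% of all genes were. In clone c 7 of 15 were lower by more than 0.3 and 0 higher, where 33% and 17.2% of all genes were. The ACTB 3 prime to 5 prime difference, at 2.13 (mix), 2.01 (clone a), 1.82 (clone b) and 2.80 (clone c), ran in the opposite order to SDF2L1, CALR, MANF and HSPA5. For the GAPDH control probe sets the difference was 0.53 (mix), 0.57 (clone a), 0.56 (clone b) and 0.86 (clone c). It was 0.68 to 0.72 in V5 vectors. Clone c was again highest, but the mix was lowest, so the other lines did not follow that order. With the ACTB difference as a covariate the log2 fold change of SDF2L1 was 0.76 (adjusted p = 0.109). The part of the ACTB difference in the split between lines was not tested. With that covariate TRIB3 fell by 0.67, DDIT3 fell by 0.57, ASNS fell by 0.53, PHGDH fell by 0.50 and XBP1 fell by 0.41. In each of these genes all 4 HOXD13 lines lay below the V5 vectors. The part of RNA integrity and labelling in these falls was not tested.

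**Figure D4:**
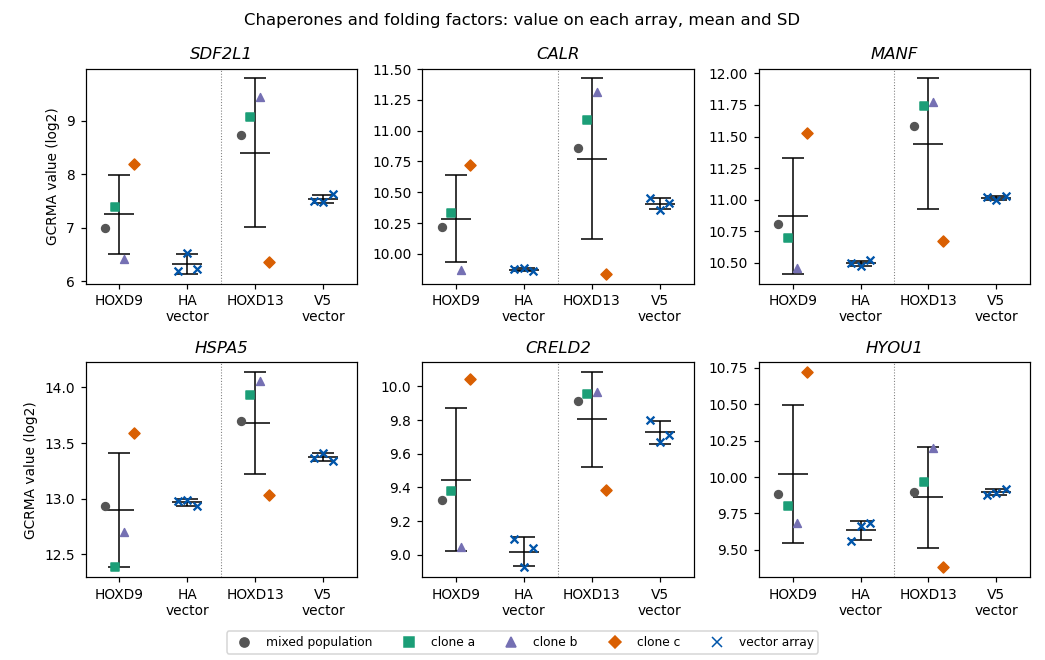
GCRMA value (y axis, log2) on each array for 6 chaperones and folding factors, with group mean and SD; the dotted line parts the HA set from the V5 set. HOXD13 clone c (orange) is the lowest of the HOXD13 lines in all 6 genes, and HOXD9 clone c is the highest of the HOXD9 lines. Other genes of the 15 go the opposite way. HOXD13 clone c is the highest of its lines in DNAJC3, SEL1L and EDEM1. HOXD9 clone c is the lowest of its lines in DNAJB9, DNAJC3, SEL1L, EDEM1 and CANX.

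In the HA set, HOXD9 clone c stood out among the chaperones. SDF2L1 had log2 levels of 6.99, 7.39, 6.42 and 8.20 in HOXD9 lines, against 6.20, 6.53 and 6.24 in HA vectors, with clone c highest and clone b among the vectors. The log2 fold change was 0.93 (SE 0.59, adjusted p = 0.316). CRELD2 read 9.32, 9.38, 9.04 and 10.04 in HOXD9 lines, against 9.09, 8.92 and 9.04 in HA vectors (log2 fold change 0.43, adjusted p = 0.220). CALR read 10.21, 10.33, 9.87 and 10.72 in HOXD9 lines, against 9.88, 9.88 and 9.86 in HA vectors, and MANF 10.81, 10.69, 10.46 and 11.53 against 10.49, 10.47 and 10.52. HSPA5 read 12.93, 12.38, 12.70 and 13.59 in HOXD9 lines, against 12.98, 12.99 and 12.93 in HA vectors, high in clone c and low in clone a. HYOU1, a large HSP70-related chaperone, and PDIA4, a disulfide isomerase, shifted by 1.09 and 0.93 in clone c. In HOXD9 clone c 10 of 15 chaperone and degradation genes were higher by more than 0.3 and 4 lower, where 43.2% and 29.1% of all genes were, and the median shift was 0.37 beside 0.20 over all genes. In clone b it was -0.10 with 0 of 15 beyond 0.3 on either side, where 7.59% of all genes were higher and 2.82% lower by that much. In the mix 4 of 15 were higher and 3 lower (12.5% and 8.55% of all genes), and in clone a 4 were higher and 4 lower (32.7% and 23.7%).

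DNAJC3 and SEL1L were below the HA vectors in all HOXD9 lines without passing. They were 2 of 19 ER arm genes, where 14.1% of all genes lay below. The other probe set of each gene that passed the filter had a HOXD9 log2 fold change of -0.71 for DNAJC3 and -0.22 for SEL1L. DNAJC3, an inhibitor of PERK also called P58IPK, had log2 levels of 8.31, 8.28, 8.37 and 7.71 in HOXD9 lines, against 8.76, 8.65 and 8.60 in HA vectors. Clone c was lowest (log2 fold change -0.50, adjusted p = 0.147). In HOXD13 lines it read 9.46, 9.44, 9.29 and 9.56, against 9.41, 9.37 and 9.38 in V5 vectors, with overlap. SEL1L, an adaptor of the ubiquitin ligase that clears misfolded ER proteins, had 9.44, 9.43, 9.58 and 8.88 in HOXD9 lines, against 9.91, 9.81 and 9.74 in HA vectors (log2 fold change -0.49, adjusted p = 0.147). SEL1L was also below all vectors in HOXD13 lines, at 10.20, 10.22, 10.00 and 10.40, against 10.53, 10.52 and 10.55 in V5 vectors (log2 fold change -0.33, adjusted p = 0.181). EDEM1, which hands misfolded glycoproteins to degradation, had -0.32 with HOXD13 and -0.07 with HOXD9, and HERPUD1, a part of the same machinery, -0.02 and 0.08.

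The remaining folding genes did not pass. HSP90B1, the ER HSP90, had log2 fold changes of 0.12 with HOXD13, where its lines were all above the vectors, and 0.01 with HOXD9. CANX, calnexin, had -0.10 and -0.09, and PDIA6, a disulfide isomerase, 0.02 and 0.05. PDIA4 had 0.03 and 0.26, HYOU1 -0.04 and 0.39, and DNAJB9, a BiP cochaperone that restrains IRE1, 0.15 and -0.30. The probe sets that read HSP90B1, PDIA6 and CALR are of the kind the maker marks as open to cross-hybridisation with similar transcripts. Of 52 measured ER genes outside the 35, 2 fell with HOXD13 and 50 did not pass, beside the 10.6% of all genes called. ERP29, an ER folding factor, fell by 0.54 (adjusted p = 0.0129) and CREB3L2, a transmembrane transcription factor of the secretory pathway, fell by 0.45 (adjusted p = 0.00696). Their differences of effect were -0.79 and -0.65, and that of FKBP14, an ER prolyl isomerase, was 0.85 (adjusted p = 0.0384), with SPCS1 of the signal peptidase called too (-0.37, adjusted p = 0.0492). In the difference of effects 1 of the 52 was thus called higher and 3 lower, where 1.52% and 8.12% of all genes were. With HOXD9 0 of the 52 were called by limma. At an unadjusted p under 0.05, 4 were higher and 8 lower with HOXD9 (13% of all genes higher, 10.5% lower).

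**Figure D5:**
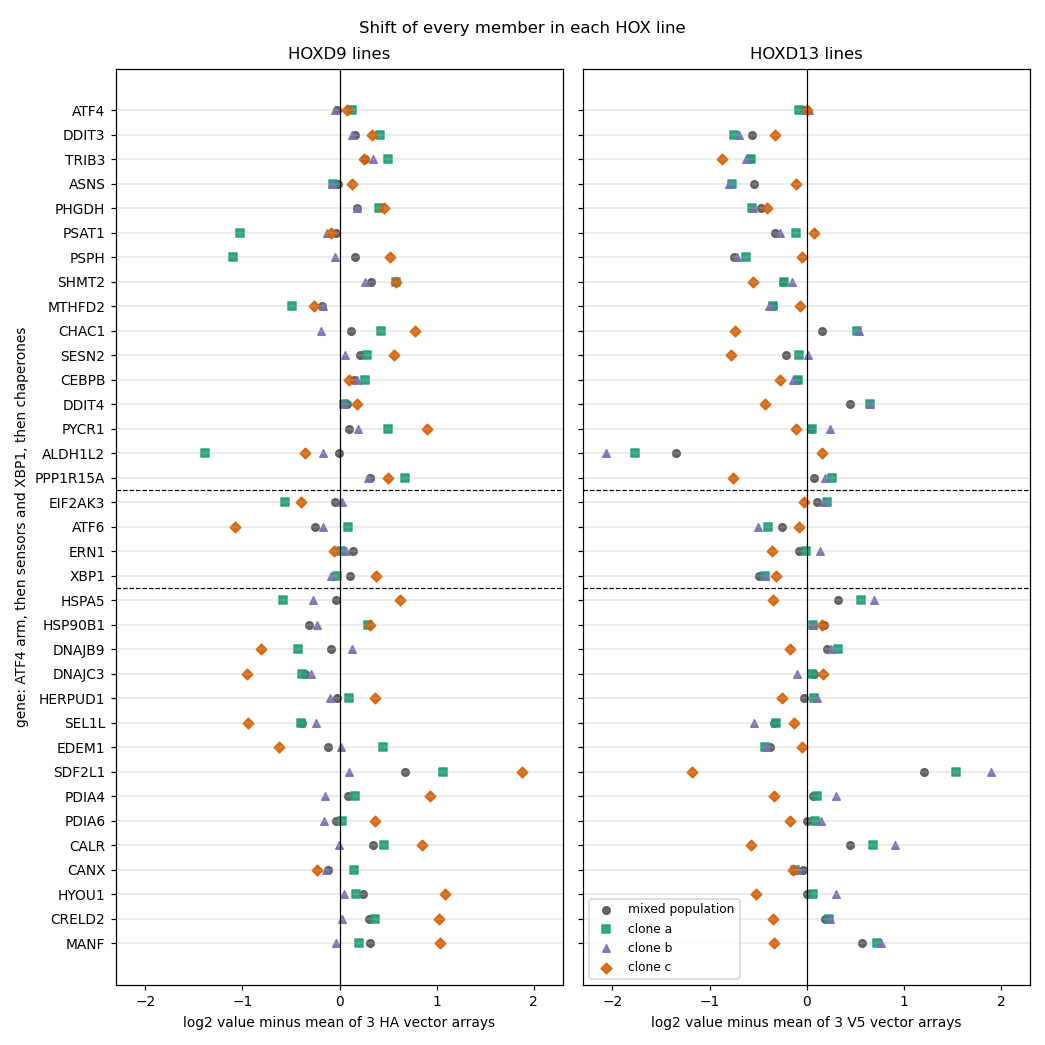
Shift of each of the 35 genes (rows, in the order ATF4 arm, sensors with XBP1, chaperones and degradation genes) in each HOX line, as the log2 value minus the mean of the 3 vector arrays of its tag (x axis; left HOXD9 lines, right HOXD13 lines). TRIB3, DDIT3, PHGDH and XBP1 lie left of 0 in all 4 HOXD13 lines, while SDF2L1, CALR, MANF and HSPA5 part clone c from the other HOXD13 lines.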

How the data were processed

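The 14 samples are HEK293 cultures, 1 Affymetrix array each. The deposited values are log2 expression values made by the authors with GCRMA, per the submitters' processing notes; the log2 scale and the separate normalization of the tag sets (sorted values equal to within 0.00102 among HA arrays and 0.00195 among V5 arrays) were read from the values. GCRMA's version and settings are not stated. Arrays carry no depth, so their number limits the precision. Of 54675 probe sets, 41097 had 1 gene symbol, 1801 several and 11777 none listed in the platform annotation of 2016, and 41043 of the single-symbol probe sets were matched to a RefSeq gene (GRCh38.p14). Probe sets with a value of at least 5 on at least 3 arrays were kept, then the one with the highest mean for each gene, giving 10349 genes.

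All 14 arrays entered 1 linear model with a mean for each of the 4 groups, using limma 3.58.1 (lmFit, eBayes) under R 4.3.3 (10 residual degrees of freedom, prior 3.02), with two-sided tests adjusted by Benjamini-Hochberg over all genes and calls at an adjusted p under 0.05. Figures were drawn with matplotlib 3.10.9. The code was tested on simulated data. Alternatives were a fit within each tag set, array weights with 1 variance per group, no filter, a filter at 7, the mean of a gene's probe sets, centred arrays, a covariate for ACTB 3 prime minus 5 prime, and each array left out in turn. The genes and lists were chosen with earlier results of these data known. Values per array are given for members called in any contrast and for the 4 members of each arm with the largest change per contrast; those of ATF4 and HSPA5, the genes in the promoter print and the 0.3 limit for shifts were chosen after values were seen. From each list of further genes the 3 called genes with the largest change per contrast are named, and PCK2, NUPR1 and CBS were added.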

Additional observations from a re-analysis of the deposited data

Results flagged for a closer look

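In 4 genes the HOXD13 effect was below the HOXD9 effect by the test of the difference itself. They were DDIT3 (-0.84 on the log2 scale), TRIB3 (-0.9997), PHGDH (-0.80) and SHMT2 (-0.73). SHMT2 was called in neither comparison taken alone. In 6 of 70 groups of 4 lines, 1 line lay far from the other lines by Dixon's test, whose nominal rate is about 1 in 20 groups. The share of all genes flagged by this test was not computed, and the 70 groups are not independent. Hence 6 of 70 cannot be read as an excess particular to these genes. By position against the V5 vectors, which is another measure, clone c lay below and the other HOXD13 lines above in 20.4% of all genes. The reverse held in 12.5%. By Dixon's test HOXD13 clone c was the line apart in 4 genes. In clone c PSPH read 10.19 against 9.60 in the nearest line, MTHFD2 13.54 against 13.26, EDEM1 8.91 against 8.58, and CRELD2 9.38 against 9.91. In the first 3 its level lay near that of the V5 vectors. PSAT1 stood at 12.43 in HOXD9 clone a against 13.33 in the nearest line, although its other probe set had a log2 fold change of 0.11 over the HOXD9 lines. DNAJC3 stood at 7.71 in HOXD9 clone c against 8.28.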

How the results depend on the processing

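The falls of TRIB3 and PHGDH with HOXD13 kept their call under all 21 alternatives (-0.76 to -0.59 and -0.53 to -0.48), and so did the differences of effect of TRIB3, DDIT3 and PHGDH under all 20. DDIT3 with HOXD13 kept it under 20 of 21, ASNS under 14, XBP1 under 12, and the SHMT2 difference under 15 of 20; no called gene changed sign. ATF4 arm calls with HOXD13 numbered 7 with the ACTB covariate and 2 to 7 with 1 array left out (lowest without V5 vector 3, highest without HOXD13 clone c), against 4. ER arm calls ranged from 0 to 4 (highest without HOXD13 clone c), against 1. With HOXD9 these were 0 to 4 and 0 to 2, calls appearing only without HOXD9 clone b or HOXD13 clone c. Over all genes, 1101 were called with HOXD13, 1772 with a variance per group, 2596 with the ACTB covariate and 303 to 3701 with 1 array left out. With HOXD9 it was 1 gene, 0 within the tag set, 6 without a filter, 2 with mean probe sets, 50 with the covariate and 0 to 1100 with 1 array left out. The difference had 997, 2025 with the covariate and 384 to 2299 with 1 array left out. With the covariate the HOXD9 medians were 0.13 in the ATF4 arm and -0.02 in the ER arm, against 0.22 and 0.04. No paired analysis was possible because HOX lines and vector arrays share no replicate numbers.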
